A study of Mus musculus with 5 samples.

Results

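Glycolysis, glycogen and glucose entry were followed here in sections of the neonatal mouse heart through 33 genes, chosen by symbol for their place in the pathway. All 33 were found among the 13711 genes listed in all 5 expression tables. The spatial transcriptome was measured on the Visium platform, in which polyadenylated RNA from a section is captured on a grid of barcoded spots, each spot reading a patch of tissue with RNA from more than 1 cell. All animals were wild-type C57BL/6 mice operated on at postnatal day 1, either with ligation of the left anterior descending artery (myocardial infarction, MI) or with a sham operation. Transverse sections were cut 200 µm under the ligature in MI hearts and at a corresponding level in sham hearts. Day 3 after surgery was represented by a single section of each operation and day 7 by 1 sham section and a pair of MI sections, named here replicate 1 and replicate 2. The study describes this pair as independent biological replicates, and every other group was a single section.

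Glucose enters a cell through facilitative transporters, is trapped by hexokinase, and is split by the glycolytic enzymes to pyruvate. Pyruvate is either reduced to lactate and exported or oxidised by the pyruvate dehydrogenase complex in mitochondria, and glucose can be stored as glycogen. The heart relies on glycolysis and lactate before birth and turns to fatty acid oxidation in the first weeks of life, and several steps have a striated muscle isoform (Pfkm, Pgam2, Eno3) and a more widely expressed one (Pfkl and Pfkp, Pgam1, Eno1).

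The 250 bases before the RefSeq start are shown for both phosphoglycerate mutases and for Pfkp and Pfkl, because these genes carry the differences described further on. The sequences are from RefSeq (GRCm38.p6) and run 5′ to 3′ on the strand of the gene, at chr19:41911621-41911870 (+ strand) for Pgam1, chr11:5803797-5804046 (− strand) for Pgam2, chr13:6648772-6649021 (− strand) for Pfkp and chr10:78009808-78010057 (− strand) for Pfkl. Capitals mark the core of the hypoxia response element, searched as ACGTG or GCGTG on both strands.
Pgam1: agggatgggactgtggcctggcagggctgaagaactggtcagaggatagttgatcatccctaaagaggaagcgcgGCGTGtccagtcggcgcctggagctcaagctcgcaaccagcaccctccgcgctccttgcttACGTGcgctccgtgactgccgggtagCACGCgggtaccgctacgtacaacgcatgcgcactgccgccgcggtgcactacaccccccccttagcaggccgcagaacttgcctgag
Pgam2: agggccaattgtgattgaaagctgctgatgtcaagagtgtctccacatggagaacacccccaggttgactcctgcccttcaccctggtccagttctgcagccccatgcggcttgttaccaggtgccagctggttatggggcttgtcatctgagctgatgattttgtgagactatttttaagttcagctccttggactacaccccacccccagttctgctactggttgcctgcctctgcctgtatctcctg
Pfkp: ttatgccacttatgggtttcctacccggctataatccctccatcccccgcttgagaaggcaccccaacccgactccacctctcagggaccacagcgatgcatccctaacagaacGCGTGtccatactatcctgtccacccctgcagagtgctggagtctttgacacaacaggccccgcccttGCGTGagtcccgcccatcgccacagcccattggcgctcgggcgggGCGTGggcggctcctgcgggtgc
Pfkl: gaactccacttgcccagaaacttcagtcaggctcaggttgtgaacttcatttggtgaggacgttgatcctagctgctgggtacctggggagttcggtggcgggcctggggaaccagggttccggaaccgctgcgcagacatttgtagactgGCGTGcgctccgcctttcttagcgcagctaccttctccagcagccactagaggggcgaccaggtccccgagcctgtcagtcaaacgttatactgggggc
Pgam1, the widely expressed phosphoglycerate mutase, held 3 matches, Pfkp 3 and Pfkl 1, and the muscle isoform Pgam2 held 0. The muscle forms Pfkm, Eno3, Hk2 and Pygm were among the members with a match. Of the 32 members with a promoter in the table (Slc2a4 was not matched), 26 held at least 1 match, or 81.2%, against 60.8% of the 10638 genes of the expression tables that had a promoter and 41.5% of all 27025 genes with one. A gene was counted if any of its windows matched, and the 32 members had 50 windows against 32851 for the 27025 genes. By window, 70% of member windows and 38.6% of all windows held a match. A match is a description of the letters and not a site of binding. In GENCODE vM21 (GRCm38) the genes themselves lie at chr19:41911923-41918660 (Pgam1), chr11:5801640-5803733 (Pgam2), chr13:6579768-6648777 (Pfkp) and chr10:77986947-78010083 (Pfkl), each on the strand given. By these coordinates the Pfkl window lies within the gene and the Pfkp window overlaps the start of Pfkp.

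Levels were CPM, that is counts scaled to the same total in every spot, computed for each spot over the shared genes and averaged over the spots of a section or of a class of spots, so that the section was the replicate. The sections held 376 to 960 spots, 3364 in all, with a median of 20842.5 to 53940 raw UMIs per spot. Of 1948 distinct spot barcodes, which mark places on the slide, 897 occurred in more than 1 section. The 7 cardiomyocyte markers summed to between 35069 and 42942 CPM in every section. The 6 macrophage markers summed to 865 CPM in MI day 3 and to between 85.7 and 232 CPM in the other sections. Mitochondrial transcripts made up 24.6% of the counts in MI day 7 replicate 1 and 13.8% to 15.7% elsewhere, so MI day 7 replicate 1 stood apart. Because a spot mixes cells, fewer cells of a type and less RNA per cell cannot be told apart.

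Transcripts of the 33 members together made up 1.18% to 1.42% of the counts of a section. Of the members, 31 reached 10 CPM in at least 1 section and 18 stood at 100 CPM or more in all 5. In 19 members the highest section was under 1.5 times the lowest, and in 5 it was over 2 times. All 33 passed the filter on low values in every fit. In the following lists of 5 values the order is sham day 3, MI day 3, sham day 7, MI day 7 replicate 1 and MI day 7 replicate 2.

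Of the glucose transporters, Slc2a4 (GLUT4, the insulin-responsive transporter of muscle) stood at 80.1, 66.9, 142, 107 and 106 CPM. Slc2a1 (GLUT1, the transporter of fetal heart and most other tissues) stood at 13.9, 17.9, 12.9, 7.16 and 11.6 CPM. The day 7 sections were therefore all above the day 3 sections for Slc2a4 and all below them for Slc2a1. Hexokinase 1, the widely expressed hexokinase, stood at 163, 163, 143, 130 and 161 CPM. The muscle hexokinase Hk2 stood at 30.8, 33.4, 39.9, 36.8 and 36.9 CPM, in the opposite order of days.

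In upper glycolysis, the muscle phosphofructokinase Pfkm stood at 301, 239, 398, 379 and 408 CPM. Its liver-type and platelet-type counterparts stood at 78.5, 95.8, 87.4, 80.4 and 91.7 CPM (Pfkl) and at 110, 135, 162, 89.7 and 119 CPM (Pfkp). Only Pfkm of the 3 separated the days, with its lowest value in MI day 3. Gpi1 (glucose-6-phosphate isomerase) ranged from 400 to 482 CPM, Aldoa (aldolase A) from 1191 to 1420 CPM and Tpi1 (triosephosphate isomerase) from 539 to 704 CPM. The enzymes that set fructose-2,6-bisphosphate, the activator of phosphofructokinase, were at low levels. Pfkfb2, the heart isoform, stood at 6.69, 7.62, 10.5, 11.9 and 12.4 CPM, Pfkfb3, the inducible isoform with the highest kinase activity, at 5.35, 9.22, 6.17, 5.02 and 6.46 CPM, and Pfkfb1 at 1.58 to 3.06 CPM. Pfkfb2 was higher in all 3 day 7 sections, whereas Pfkfb3 was highest in MI day 3. In the raw counts of sham day 3 the 77 UMIs of Pfkfb2 gave 6.76 CPM of the section total (exact Poisson 95% interval 5.33 to 8.44) and the 58 UMIs of Pfkfb3 gave 5.09 CPM (3.86 to 6.58). These intervals cover counting error only.

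In lower glycolysis, Pgam1 stood at 128, 213, 153, 96.6 and 162 CPM and the muscle mutase Pgam2 at 574, 501, 682, 542 and 647 CPM. MI day 3 was the highest section for Pgam1 and the lowest for Pgam2. The muscle enolase Eno3 showed the same low place of MI day 3, with 1075, 882, 1360, 1315 and 1339 CPM. Eno1 stood at 92.2, 99.6, 85.1, 34.1 and 99.7 CPM, and its low value rested on MI day 7 replicate 1 alone. Eno1 has a near-identical copy in Eno1b (3.2 to 6.51 CPM), so how its counts were assigned is uncertain. Gapdh ranged from 1487 to 2269 CPM, Pgk1 (phosphoglycerate kinase) from 433 to 644 CPM and Pkm (pyruvate kinase) from 690 to 911 CPM. For Gapdh the 2 MI day 7 replicates were the lowest and the highest of the 5 sections, a gap as wide as the whole range.

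Of the lactate genes, Ldha ranged from 830 to 1039 CPM and Ldhb, the heart-type subunit, from 953 to 1253 CPM. Slc16a1 (MCT1) ranged from 117 to 161 CPM. Slc16a3 (MCT4, the lactate exporter of glycolytic cells) stood at 8.09, 24.8, 6.09, 3.46 and 8.86 CPM, and MI day 3 was the highest by a wide margin. Around pyruvate dehydrogenase, the inhibitory kinase Pdk1 stood at 85.4, 114, 84.1, 73.7 and 77.7 CPM and Pdk2 at 103, 93.4, 107, 125 and 122 CPM. The complex subunits were lowest in MI day 3, where Pdhb was at 472 CPM (557 to 734 CPM elsewhere), Pdha1 at 496 CPM (527 to 668 CPM) and Dlat at 189 CPM (198 to 254 CPM). Of the glycogen genes, the muscle glycogen phosphorylase Pygm stood at 263 and 270 CPM at day 3 and at 328 to 361 CPM at day 7. Pygb (brain-type phosphorylase) at 166 to 199 CPM, Gys1 (muscle glycogen synthase) at 52.1 to 71.9 CPM and Gbe1 (branching enzyme) at 27.4 to 37.2 CPM did not separate the days.

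**Figure D1:**
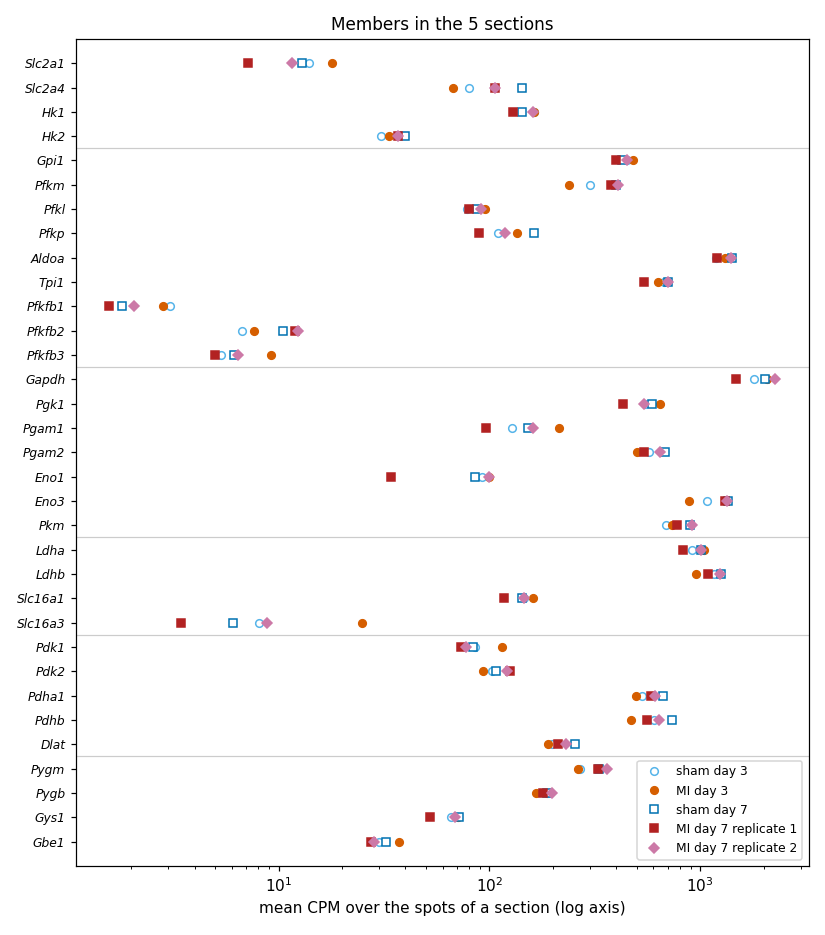
Mean CPM of each of the 33 members (log axis) in the 5 sections, 1 point per section, grouped from top to bottom into glucose entry, upper glycolysis, lower glycolysis, lactate, pyruvate dehydrogenase and glycogen. Slc2a4, Pfkm and Eno3 lie higher in the 3 day 7 sections, and the MI day 3 point of Slc16a3 (24.8 CPM) lies above the 4 others (3.46 to 8.86 CPM).

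The first comparison set day 7 against day 3 of either operation, a time in which the heart matures. The highest differences at day 7 were those of Slc2a4 (log2 difference 0.73, SE 0.11), Pfkfb2 (0.60, SE 0.13), Pfkm (0.58, SE 0.13) and Eno3 (0.48, SE 0.14). The lowest differences were those of Slc16a3 (−1.27, SE 0.44), Slc2a1 (−0.55, SE 0.25), Eno1 (−0.48, SE 0.41) and Pdk1 (−0.35, SE 0.15). No member passed an adjusted p of 0.05 in limma with Benjamini-Hochberg adjustment over 12933 genes, where 0 of 33 members and 0.595% of all genes were called. An unadjusted p under 0.05 was held by 10 members and by 3241 of the 12933 genes. Slc2a4 came closest, with an adjusted p of 0.0502, followed by Pfkm (adjusted p = 0.0948). Levels of 10 members (Slc2a4, Hk2, Pfkm, Pfkfb2, Eno3, Pkm, Pdk2, Pdha1, Dlat and Pygm) lay above day 3 in every day 7 section, against 5.79% of all genes. Those of 6 members (Slc2a1, Hk1, Gpi1, Pfkfb1, Slc16a1 and Pdk1) lay below in every section, against 38.9% of all genes. The median difference was 0.00 over the members and −0.18 over all genes, so relative to the genes as a whole Slc2a4 differed by 0.91, Pfkm by 0.77 and Slc16a3 by −1.09, while Hk1 and Gpi1 were near 0 (0.00 and 0.04). With median-of-ratios scaling, which removes that shift, 4 members passed, all higher at day 7, against 0.981% of all genes: Slc2a4 (0.92, adjusted p = 0.0139), Pfkm (0.78, adjusted p = 0.0357), Pygm (0.54, adjusted p = 0.0495) and Pfkfb2 (0.77, adjusted p = 0.0498). The macrophage markers summed to 865 CPM in MI day 3, but within sham to 85.7 CPM at day 3 and 93.4 CPM at day 7. Between the days 0 of 6 were called, and their part in the differences was not tested. With a sham section left out, so that the days were compared within MI, Slc16a3 was at −1.96, Slc2a1 at −0.89 and Pdk1 at −0.59. Slc16a3 and Slc2a1 passed as lower at day 7 there, where the single MI day 3 section was set against the MI day 7 pair, with 1 residual degree of freedom, and was assumed to vary like that pair. By which sham section was left out, 4.85% or 4.95% of all genes passed as lower there, close to the share of the members. Without MI day 3, so that the days were compared within sham, the same genes were at −0.36, −0.10 and −0.02, and whether the operations differ in this was not tested. Slc2a4 was at 0.66 within MI and 0.82 within sham.

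The second comparison asked how infarcted hearts differed from sham hearts. Across days, with day as a covariate, 0 of 33 members passed limma's adjusted p, against 0.00773% of all genes. An unadjusted p under 0.05 was held by 2 members and by 1048 of 12933 genes. The largest differences were Slc16a3 (0.59, SE 0.44, adjusted p = 0.80) and Slc2a4 (−0.35, SE 0.11, adjusted p = 0.494). No member stood above both sham sections in all 3 MI sections (6.84% of all genes did), and none below (9.6% of all genes). At day 7 a single sham section was set against the MI pair, with 1 residual degree of freedom, so the spread came from that pair and the sham section was assumed to vary alike. The differences are therefore given as sizes only. Pfkp was the lowest member (log2 difference −0.65) and Pdk2 the highest (0.20). The median was −0.13 over the members and −0.04 over all genes.

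At day 3, with 1 section of each operation, there is no test. Slc16a3 was 3.06 times as high in MI as in sham (log2 ratio 1.5), Pgam1 1.66 times (0.73) and Pfkfb3 1.72 times (0.69). These were the 3 members past a log2 ratio of 0.5, against 10.8% of all genes, and none was past −0.5, against 4.07% of all genes. Pdk1 (0.42) and Slc2a1 (0.34) followed, and at the other end stood Pdhb (−0.35), Pfkm (−0.33), Eno3 (−0.29) and Ldhb (−0.29). All 6 macrophage markers were past the same limit in the MI day 3 section, with a median log2 ratio of 2.19, and so were all 5 erythroid markers (median 1.40). The limit was also passed by 2 of 6 fibroblast, 2 of 3 epicardial, 1 of 5 smooth muscle and pericyte and 1 of 3 skeletal muscle markers. No cardiomyocyte or endothelial marker passed it. The part of these lists in the member ratios was not tested. In the macrophage-dominant spots of that section (20 spots) Pgam1 reached 357 CPM, Eno1 211 CPM, Slc16a3 47.0 CPM and Pfkfb3 22.6 CPM, whereas Eno3 was at 332 CPM and Pfkm at 118 CPM.

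To see where in the tissue the genes were read, each spot was assigned to the cell type with the highest of its 11 deposited scores. The scores were estimated from the same expression values, so member genes may have weighed in them. Spots in which fibroblast led (FB-dominant, 22 to 266 per section) were set against those of CM1, the most abundant cardiomyocyte state (211 to 491 per section), with the section as a block. All 6 fibroblast markers, all 6 macrophage markers and all 5 smooth muscle and pericyte markers (median 1.12) were higher in FB-dominant spots. The mitochondrial share was lower there in 5 of 5 sections, at 6.71% to 18.3% against 16.2% to 28.2% in CM1-dominant spots. Cardiomyocyte markers still summed to 26183 to 39245 CPM there, against 38715 to 45578 CPM in CM1-dominant spots.

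In this comparison 2 members rose and 11 fell in FB-dominant spots, against 23.5% and 3.42% of all 13405 genes tested. Pgam1 stood at 148, 265, 164, 130 and 244 CPM in FB-dominant spots and at 120, 171, 145, 81.2 and 138 CPM in CM1-dominant spots. It was higher in 5 of 5 sections, with a log2 difference of 0.52 (SE 0.09, adjusted p = 0.000781). Pfkfb3 stood at 6.13, 30.3, 7.09, 9.76 and 9.18 CPM in FB-dominant spots against 3.2, 6.09, 5.29, 4.02 and 5.07 CPM (1.02, SE 0.23, adjusted p = 0.00378). These 2 were the only members above CM1-dominant spots in every section, against 30.9% of all genes.

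Of the 11 that fell, Eno3, the muscle enolase, had the lowest adjusted p. It stood at 939, 609, 1208, 1132 and 922 CPM in FB-dominant spots against 1195, 1015, 1449, 1364 and 1460 CPM, lower in 5 of 5 sections (−0.46, SE 0.09, adjusted p = 0.00196). Of the pyruvate dehydrogenase group 4 of 5 members fell: Pdhb (−0.32, SE 0.08, adjusted p = 0.0119), Dlat (−0.29, SE 0.08, adjusted p = 0.0138), Pdk2 (−0.31, SE 0.09, adjusted p = 0.0158) and Pdha1 (−0.26, SE 0.08, adjusted p = 0.0228). Pdk1 (−0.21) did not pass. The others that fell were the lactate importer Slc16a1 (−0.30, SE 0.08, adjusted p = 0.0172), Pfkm (−0.31, SE 0.09, adjusted p = 0.0216), Pygm (−0.24, SE 0.08, adjusted p = 0.0275), Ldhb (−0.30, SE 0.10, adjusted p = 0.0295), Pgam2 (−0.24, SE 0.08, adjusted p = 0.0334) and Hk2 (−0.30, SE 0.10, adjusted p = 0.0427). Levels of 12 members were below CM1-dominant spots in every section, against 5.22% of all genes, Slc2a4 being the one that did not pass (−0.26, adjusted p = 0.0600). The median was −0.08 over the members and 0.18 over all genes. Under median-of-ratios scaling the same 2 members rose and 20 fell, against 11.4% and 9.9% of all genes, Gapdh (−0.28), Aldoa (−0.28) and Tpi1 (−0.28) among them. In CPM, all 11 that fell were lower in 5 of 5 sections. Without MI day 7 replicate 2, where the fibroblast markers of FB-dominant spots summed to 15256 CPM, Pgam1 and Pfkfb3 still rose and Eno3 was the 1 of the 11 that passed as lower. The other 10 (Pdhb, Dlat, Slc16a1, Pdk2, Pdha1, Pfkm, Pygm, Pgam2, Hk2 and Ldhb) were then at −0.28 to −0.21, with adjusted p of 0.0693 to 0.135. The cardiomyocyte list moved too, with 4 of 7 markers lower (median −0.33), and the part of these marker lists in the calls was not tested. With mitochondrial and haemoglobin genes left out 2 members rose and 14 fell.

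**Figure D2:**
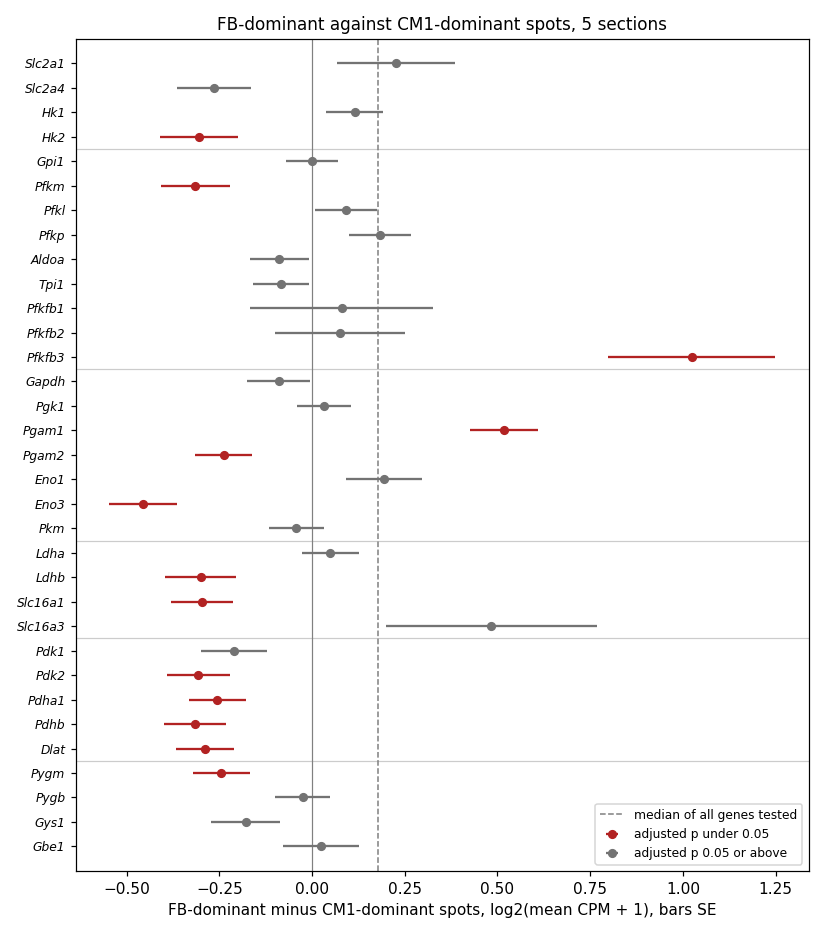
Log2 difference in mean CPM + 1 between FB-dominant and CM1-dominant spots for the 33 members over 5 sections, points with standard error bars, red where the limma adjusted p was under 0.05. Pgam1 (0.52) and Pfkfb3 (1.02) lie to the right of the median of all genes (dashed, 0.18), and the pyruvate dehydrogenase genes lie to the left of 0.

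CM4 is an immature state of neonatal cardiomyocytes defined in earlier single-nucleus data, and CM4-dominant spots (40 to 86 per section) were set against CM1-dominant spots. Over all 5 sections 0 members passed limma's adjusted p, against 1.15% of all genes. An unadjusted p under 0.05 was held by 9 members and by 1539 of 13285 genes. Among members at 10 CPM or more in a section, the highest differences were Slc16a3 (0.86, SE 0.28, adjusted p = 0.169) and Slc2a1 (0.30, SE 0.19, adjusted p = 0.591). The lowest were Pdk2 (−0.34, SE 0.10, adjusted p = 0.131) and Pfkm (−0.25, SE 0.08, adjusted p = 0.185). Without sham day 3, Slc16a3 (1.21, adjusted p = 0.0106), Pgam1 (0.49, adjusted p = 0.0190) and Pfkp (0.43, adjusted p = 0.0375) passed as higher in limma, as did 279 of 13178 genes. In the 3 MI sections 18 members were higher in CM4-dominant spots each time, against 44.7% of all genes, and 3 (Eno3, Pdk2 and Pdha1) were lower each time, against 4.17% of all genes.

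MI and sham sections differed in this contrast. Pgam1 stood at 326, 119 and 186 CPM in the CM4-dominant spots of MI day 3 and the MI day 7 replicates, against 171, 81.2 and 138 CPM in CM1-dominant spots. In sham day 3 and sham day 7 it stood at 85.8 and 151 CPM against 120 and 145 CPM. The log2 difference between CM4 and CM1 was thus 0.93, 0.55 and 0.43 in MI and −0.48 and 0.06 in sham, without overlap. Pfkp showed the same order, with 0.81, 0.51 and 0.41 in MI against −0.34 and 0.00 in sham, and so did Pfkl, with 0.30, 0.34 and 0.30 against −0.19 and −0.42. Such an order was not particular to these genes, since 17 of 33 members and 35.2% of all genes lay above both sham sections in every MI section, and 0 members and 2.9% of all genes lay below. Tested as the interaction of class and operation, 3 members passed as higher in MI, Pgam1 (0.84, SE 0.17, adjusted p = 0.0152), Pfkp (0.74, SE 0.16, adjusted p = 0.0202) and Pfkl (0.62, SE 0.15, adjusted p = 0.0412), and 0 as lower, against 1.58% and 0.151% of genes called. Slc16a3 had the largest value (1.59, SE 0.42, adjusted p = 0.0540), with 57.0, 4.59 and 22.9 CPM in CM4-dominant spots of MI against 17.7, 2.49 and 4.27 CPM in CM1-dominant spots. Hk1 followed (0.55, SE 0.15, adjusted p = 0.0540), and none of the muscle forms passed, with Gys1 at 0.49 (adjusted p = 0.106), Pgam2 at 0.33 (adjusted p = 0.155), Pfkm at 0.11, Eno3 at 0.02 and Hk2 at −0.11.

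The median of this interaction was 0.28 over all genes and 0.33 over the members. Relative to it Pgam1 differed by 0.57, Pfkp by 0.47 and Pfkl by 0.34, and with median-of-ratios scaling none of the 33 members passed (Pgam1 0.55, adjusted p = 0.229). The mitochondrial share moved with the same groups. It was 9.70%, 20.8% and 14.1% in CM4-dominant spots of MI against 17.0%, 28.2% and 17.3% in CM1-dominant spots, but 22.8% and 20.5% against 16.3% and 16.2% in sham. With mitochondrial and haemoglobin genes left out of the scaling, Pgam1 was at 0.63 (adjusted p = 0.147) and no member passed. The calls also needed the single sections of day 3, since leaving out sham day 3 or MI day 3 left 0 calls, with Pgam1 at 0.57 (adjusted p = 0.193) and 0.70 (adjusted p = 0.0615), as did leaving out MI day 7 replicate 2, with Pgam1 at 0.95 (adjusted p = 0.0516). Within the 3 MI sections alone, a setting added after the values were seen, 5 members passed as higher in CM4-dominant spots, against 7.83% of all genes: Pgam1 (0.63, adjusted p = 0.00206), Slc16a3 (1.5, adjusted p = 0.00213), Pfkp (0.58, adjusted p = 0.00282), Gbe1 (0.41, adjusted p = 0.0416) and Pfkl (0.32, adjusted p = 0.0454). CM4-dominant spots of MI also held more of the other cell types' markers than CM1-dominant ones. Fibroblast markers summed to 4421 to 6643 CPM against 2944 to 3484 CPM, and macrophage markers to 139 to 920 CPM against 81.9 to 250 CPM. In the interaction itself 4 of 5 erythroid markers passed as lower in MI (median −1.44), and the skeletal actin Acta1 passed as higher (1.36, adjusted p = 0.00951). Erythroid markers summed to 6537 to 10823 CPM in CM4-dominant and 8623 to 11048 CPM in CM1-dominant spots of MI, but to 8597 and 19947 CPM against 3837 and 6393 CPM in sham. Their part in the differences was not tested.

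**Figure D3:**
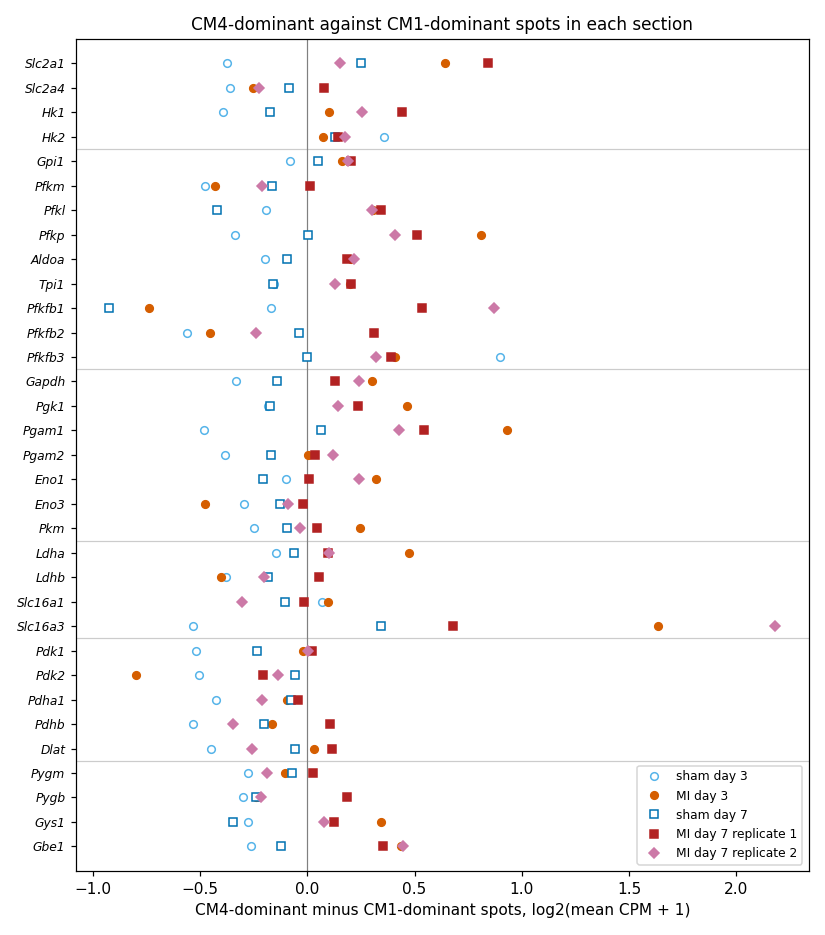
Log2 difference in mean CPM + 1 between CM4-dominant and CM1-dominant spots in each section (open symbols sham, filled symbols MI), 1 point per section and gene. For Pgam1, Pfkp and Pfkl the 3 MI points (0.30 to 0.93) lie to the right of the 2 sham points (−0.48 to 0.06).

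Shares between isoforms of the same step were read next, since a scaling factor common to a class of spots cancels in a ratio. These are levels described without a test. A mix of cell types in a spot does not cancel. In macrophage-dominant spots of MI day 3, Pgam1 stood at 357 CPM and Pgam2 at 233 CPM. The part of this mix in the shares was not tested. Pgam2 gave 83.7%, 75.8%, 83.4%, 86.9% and 83.1% of the phosphoglycerate mutase counts in CM1-dominant spots, in the section order above. In CM4-dominant spots it gave 84.6%, 62.1%, 81.0%, 82.3% and 79.8%, and in FB-dominant spots 78.7%, 60.1%, 78.8%, 80.4% and 68.9%. The muscle isoform thus had its lowest share in MI day 3 in each class. Within MI, its share was lower in CM4-dominant than in CM1-dominant spots in 3 of 3 sections, and in sham in 1 of 2.

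Pfkm gave 62.3%, 55.5%, 62.7%, 71.0% and 68.8% of the phosphofructokinase counts in CM1-dominant spots and 58.9%, 37.7%, 62.2%, 64.6% and 59.7% in CM4-dominant spots. In the CM4-dominant spots of MI day 3 Pfkl and Pfkp together were thus above Pfkm, while sham day 7 differed by less than 1 point between the classes. Ldhb, the heart-type subunit, gave 52.2% of lactate dehydrogenase counts in CM1-dominant spots of MI day 3 and 37.2% in its CM4-dominant spots, against 52.5% to 57.8% in both classes of the other 4 sections. For the lactate transporters, Slc16a1 gave 90.5% in CM1-dominant and 75.9% in CM4-dominant spots of MI day 3, and 97.3% and 84.6% in those of MI day 7 replicate 2. In the CM4-dominant spots of the other 3 sections it gave 94.9% to 96.3%. For hexokinase, Hk2 gave 18.6%, 24.3% and 19.9% in CM1-dominant and 18.4%, 20.7% and 19.1% in CM4-dominant spots of MI, but 15.9% and 23.0% against 24.4% and 27.0% in sham. Its share was thus lower in CM4-dominant spots in 3 of 3 MI sections and higher in both sham sections. For glycogen phosphorylase, Pygm gave 62.6% in CM1-dominant and 64.8% in CM4-dominant spots of MI day 3. In sham day 3 these shares were lower, at 59.3% and 59.8%. Over whole sections, Slc2a4 gave 85.2% and 78.9% of the Slc2a4 and Slc2a1 counts at day 3 and 91.7%, 93.7% and 90.1% at day 7.

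**Figure D4:**
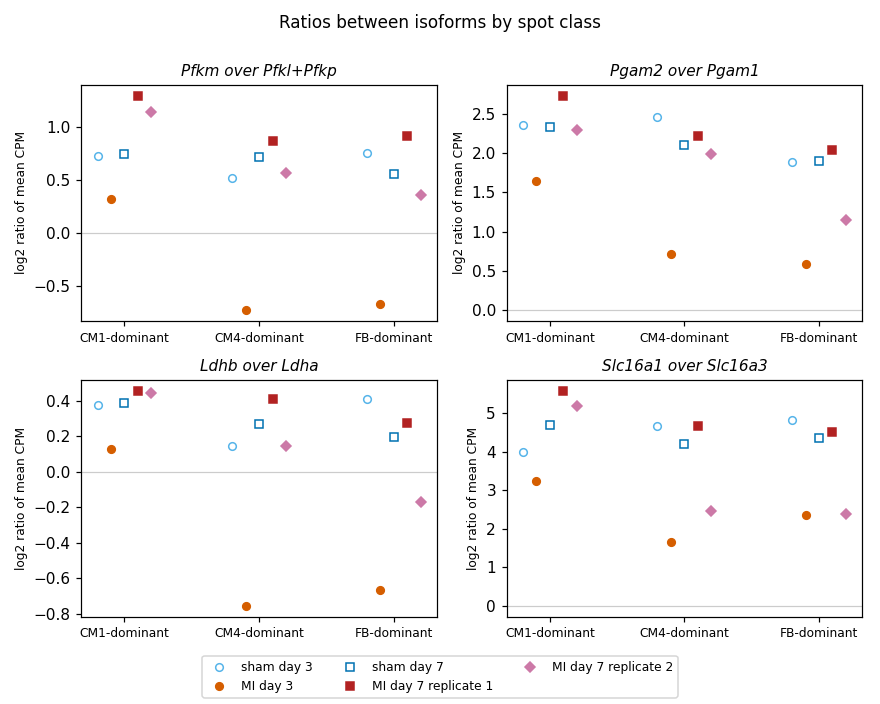
Log2 ratio of mean CPM between isoforms of a step in CM1-dominant, CM4-dominant and FB-dominant spots, 1 point per section. The MI day 3 points are lowest in each of the 4 ratios drawn and fall below 0 in CM4-dominant spots for Pfkm over Pfkl and Pfkp (−0.73) and for Ldhb over Ldha (−0.75). Of the pairs not drawn, Eno3 over Eno1 and Slc2a4 over Slc2a1 were also lowest in MI day 3 in CM1-dominant spots. Hk2 over Hk1 and Pygm over Pygb were not.

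Distance was examined among CM1-dominant spots only, so that class was held constant. Near spots were the direct neighbours of a CM4-dominant spot on the grid, and far spots lay beyond the fourth ring of spots around it. MI day 3 had 18 near spots, under the minimum of 20, so only both MI day 7 replicates entered the fit, leaving 1 residual degree of freedom, with the spread of a gene taken from the trend over all genes, and values for MI day 3 are given as a description. Hk1 stood at 130 and 190 CPM near and at 102 and 145 CPM far in the MI day 7 replicates, and at 227 and 149 CPM in MI day 3. It was 0.37 higher near (SE 0.09, adjusted p = 0.00803). Pgam1 stood at 95.2 and 156 CPM near and 70.3 and 132 CPM far in the MI day 7 replicates, and at 272 and 155 CPM in MI day 3 (0.34, SE 0.10, adjusted p = 0.0451). Hk1 and Pgam1 were thus the 2 members that rose near CM4-dominant spots, against 1.48% of genes higher, and 0 fell, against 0.189% lower.

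Slc2a1 had the largest value but did not pass, with 7.51 and 15.1 CPM near against 3.92 and 9.30 CPM far (0.72, SE 0.28, adjusted p = 0.164). Pdk2 (−0.10, SE 0.10, adjusted p = 0.604) and Slc2a4 (−0.06, SE 0.10, adjusted p = 0.777) were the 2 members below far spots in all 3 MI sections, against 4.09% of all genes, and 17 members were above them, against 32.7% of all genes. The median was 0.12 over the members and 0.18 over all genes. Relative to all genes Hk1 differed by 0.20 and Pgam1 by 0.16, and with median-of-ratios scaling neither passed (Hk1 0.19, adjusted p = 0.649). With mitochondrial and haemoglobin genes left out neither passed either (Hk1 0.28, adjusted p = 0.200), and near spots held 26.5% and 14.7% mitochondrial counts in the MI day 7 replicates against 31.1% and 19.7% in far spots. In the same fit the fibroblast marker Col1a1 (0.35), the smooth muscle marker Acta2 (0.49) and Acta1 (0.62) passed as higher near, 1 of 6, 1 of 5 and 1 of 3 markers of their lists, and 3 of 5 erythroid markers passed as lower (Hbb-bs lowest, −0.30). Their part in the 2 calls was not tested. When MI day 3 was let in with its 18 spots, Hk1 was at 0.45 (adjusted p = 0.140) and Pgam1 at 0.49 (adjusted p = 0.189). With near widened to the second ring of spots, which also brought MI day 3 into the fit, 5 members rose (Pgam1, Gapdh, Hk1, Tpi1 and Pfkp), against 0.657% of all genes. With spots of every class but CM4 let in, and MI day 3 with them, 7 rose (Pgam1, Pfkp, Hk1, Pfkfb3, Slc2a1, Slc16a3 and Eno1), against 12.4% of all genes, and class then moved with distance.

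In sham sections Hk1 ran the other way, with 140 CPM near and 181 CPM far at day 3 and 140 and 150 CPM at day 7. The difference between MI and sham in the near-to-far contrast was 0.61 for Hk1 (SE 0.14, adjusted p = 0.105). Here 0 members passed in limma, against 0.214% of all genes, with a median of 0.21 over the members and 0.20 over all genes. An unadjusted p under 0.05 was held by 13 of 33 members and by 1401 of 13100 genes. After Hk1, Ldhb (0.32, adjusted p = 0.161) and Pgam2 (0.34, adjusted p = 0.172) had the next lowest p-values. Leaving out a section gave Hk1 0.48 to 0.75. With near widened to the second ring, which also let in MI day 3, Hk1 was the 1 member that passed as higher, as did 35 of 13198 genes. The mitochondrial share also ran the other way in sham, higher near (19.97% and 17.7%) than far (13.2% and 14.6%).

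**Figure D5:**
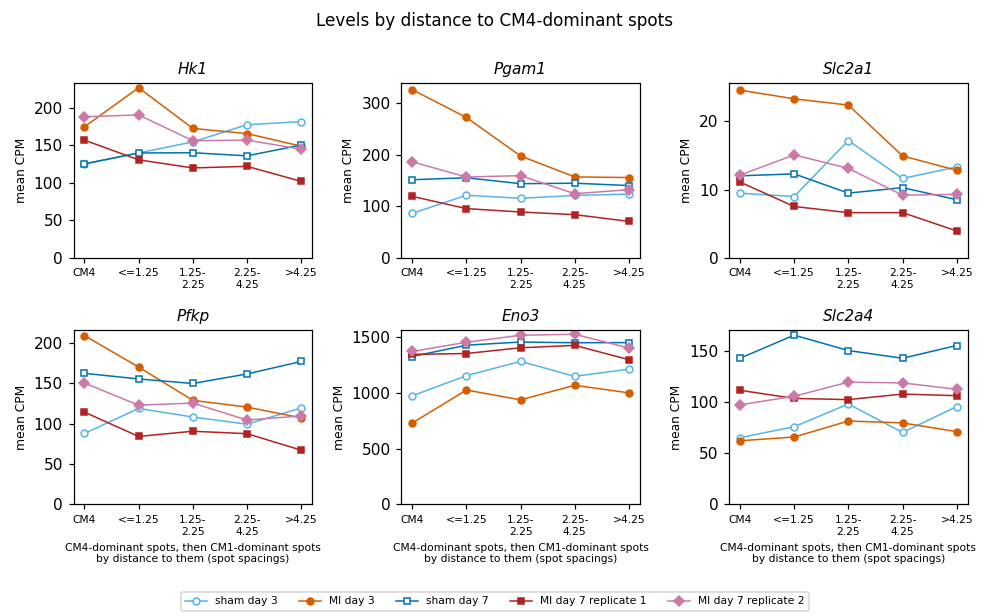
Mean CPM of 6 members in CM4-dominant spots and in CM1-dominant spots by distance from them in spot spacings, 1 line per section. Pgam1 in MI day 3 goes from 326 CPM in CM4-dominant spots to 155 CPM in the farthest bin, whereas in the sham sections it stays between 85.8 and 155 CPM.

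Other genes of the pathway, listed by function, were followed in the same fits. Among 24 further glycolysis and glycogen genes 0 rose and 1 fell from day 3 to day 7, a comparison in which 0.595% of all genes were called, and the gene that fell was Aldoc (aldolase C, −1.75, SE 0.26, adjusted p = 0.0492), from 6.44 and 7.02 CPM to 0.75 to 1.99 CPM. Among 9 genes of pyruvate entry, 0 rose and 1 fell, which was Pdk4, the kinase linked to fatty acid use, from 98.4 and 115 CPM to 18.6 to 30.8 CPM (−1.98, SE 0.23, adjusted p = 0.0316). The mitochondrial pyruvate carrier gene Mpc1 stood higher at day 7 (0.79, adjusted p = 0.0698). In FB-dominant spots, where 23.5% of all genes were called higher and 3.42% lower, 7 of 10 genes of the NADH shuttles fell, the lowest being Slc25a13 (−0.73, adjusted p = 0.00418), and 0 rose. There, 4 of 25 further glycolysis genes rose, the highest being Eno2, the neuronal enolase (0.83, adjusted p = 0.0244). Another 2 fell, the lowest being Fbp2, muscle fructose bisphosphatase (−0.69, adjusted p = 0.0129). Of 7 pentose phosphate genes 2 rose, led by G6pdx (0.91, adjusted p = 0.00258). Of 15 genes known to be induced by hypoxia outside glycolysis, 3 rose in FB-dominant spots (P4ha1 highest, 0.51, adjusted p = 0.0127). In the interaction of class and operation 2 passed as higher in MI, against 1.58% of all genes, and at day 3 a pair was past a log2 ratio of 0.5 in MI (Bnip3 highest, 1.05), against 10.8% of all genes.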

How the data were processed

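Spatial RNA was measured in 5 heart sections. The authors aligned reads to mm10/GRCm38 with Space Ranger (version not given in the sources used here) and normalized spots by sctransform in Seurat. For sham day 3 the authors deposited raw UMI counts. The 4 remaining tables deposited were counts already corrected by sctransform, a score close to the count a spot would have at the median depth of its section, so no count model was used. The authors also deposited, per spot, total counts, pixel positions and 11 cell type scores, probabilities given as a fraction from 0 to 1 and made by label transfer from single-nucleus data.

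Here each spot was scaled to CPM over the 13711 genes shared by all tables, and spots were averaged per section, per class (highest score) or per distance bin, with at least 20 spots. Fits used limma 3.58.1 (R 4.3.3) with a mean-variance trend on log2(mean CPM + 1), two-sided, adjusted by Benjamini-Hochberg over all genes tested, with a threshold of 0.05. Genes were kept at 1 CPM in at least 2 columns. Differences are on the log2(CPM + 1) scale, which understates changes of low genes. Fits by section had the other factor as covariate, and fits by class or bin had the section as a block. The script was tested on simulated data. Gene positions were read from GENCODE vM21 and promoters from RefSeq. All members are given, with full statistics for those past the threshold and statistics for some of the largest rises and falls among members at 10 CPM or more. Members and lists were chosen with earlier results of these data known. Alternatives were another scaling, mitochondrial and haemoglobin genes left out, a pseudocount of 5, pooled spots, sctransform applied to sham day 3, no filter, spots under 5000 raw UMIs left out, other score, bin and distance limits, and each section left out.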

Additional observations from a re-analysis of the deposited data

Results flagged for a closer look

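The difference between CM4-dominant and CM1-dominant spots was not the same in MI and sham hearts for 3 members, by the test of that difference itself (limma, Benjamini-Hochberg). It was larger in MI by 0.84 on the log2 scale for Pgam1, by 0.74 for Pfkp and by 0.62 for Pfkl. All 3 MI sections were positive for each gene, and of the sham sections Pgam1 was positive in 1, Pfkp in 1 (at 0.00) and Pfkl in none. The shift of all genes in the same contrast was 0.28, and the alternatives that end these calls are given below. No group held 4 or more sections, so no outlier test within a group was made.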

How the results depend on the processing

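The limits are few sections, 1 table of raw counts beside 4 of corrected counts, and spots of several cells. Over the 78 combinations of named member and comparison, leaving out a section kept direction and side of the threshold in 224 values, lost the threshold in 21, newly passed it in 14, changed sign in 22 and moved a value with no test in 3, and for other alternatives these were 595, 15, 15, 13 and 3. Most of the values kept on leaving out a section were of members past no threshold in the main fit, so the tally does not measure the stability of the calls. Nothing in the sample labels pairs sections of different groups, so fits between sections were unpaired, while fits by class or distance had the section as a block. With median-of-ratios scaling the calls came to 4 for day 7 against day 3, 1 for CM4 against CM1 (Pfkm, lower), 22 for FB against CM1, 0 for near against far and 0 for the interaction of class and operation. With mitochondrial and haemoglobin genes left out they were 1 for the days, 0 for near against far, 0 for that interaction and 16 for FB against CM1. For the days, pooled spots gave 1 call and no filter 1. The 3 MI sections alone gave 5 for CM4 against CM1, sctransform on sham day 3 gave 5 for the interaction, near widened to the second ring 5 in MI and 1 for MI minus sham, all spots other than CM4-dominant ones 7 and 1, and bins of at least 15 spots 0 in MI. These last 3 settings all brought MI day 3 into the fit, whose part in the first pair was not tested. The cause was not tested. Leaving out 1 section gave 0 to 1 calls for MI against sham, 0 to 2 for the days, 0 to 3 for CM4 against CM1, 3 to 13 for FB against CM1, 0 to 3 for near against far in MI minus sham, and 0 to 4 for the interaction.

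Some members past no threshold changed sign. Near against far in MI, near widened to the second ring, with MI day 3 let in, gave Pdk2 0.074, Slc2a4 0.0072 and Slc16a1 0.16, and bins of at least 15 spots Slc16a1 0.11. In MI minus sham, near widened to the second ring gave Slc16a1 0.12 and Pdk2 0.13, spots other than CM4-dominant ones Pfkfb2 0.039 and Pfkl 0.30, a CM4 score of at least 0.5 Pfkfb2 0.89 and Pfkl 0.13, pooled spots Pfkl 0.00094 and bins of at least 15 spots Pfkl 0.18. In the interaction of class and operation, a score of at least 0.5 gave Pdk2 0.0038. Leaving out a section gave, for MI against sham, Slc16a3 −0.10 to 1.5, Pgam1 −0.29 to 0.73, Pfkl −0.025 to 0.28, Eno1 −0.59 to 0.17 and Pfkp −0.65 to 0.29, and at day 7 Eno1 −1.29 to 0.23, Pygm −0.012 to 0.12 and Hk1 −0.14 to 0.17. For near against far in MI minus sham it gave Pfkfb2 −0.35 to 0.15, Slc16a1 −0.44 to 0.11 and Pfkl −0.16 to 0.10, and for the interaction Hk2 −0.23 to 0.00095, Slc16a1 −0.14 to 0.058 and Pdk2 −0.32 to 0.13. A day 3 section could not be left out of the day 3 ratios, at day 7 no MI section could be left out with a test, and a CM4 score of at least 0.5 left no fit of near against far in MI alone.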
